A study of Mus musculus with 14 samples.

Results

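The 10 claudin genes described here were Cldn1, Cldn2, Cldn3, Cldn4, Cldn5, Cldn7, Cldn8, Cldn10, Cldn16, and Cldn19, a set of claudins whose place along the nephron, in the glomerulus, or in the vessels is known. They were taken from the expression tables by gene symbol, and 10 of 10 were found among the 21878 genes listed for each mouse. All of them passed the filter on low values that left 14912 genes for testing. Kidney RNA came from 14 male C57BL/6J mice in 4 groups, with 4 mice in each diabetic group, Cfb-/- and WT, and 3 mice in each control group, Cfb-/- and WT. The Cfb-/- mice were knockouts of the gene of complement factor B, the serine protease of the alternative complement pathway, although the sample labels call this a knockdown. Diabetic mice of both genotypes were fed a high-fat diet with 60% of calories from fat for 4 weeks and were then injected with streptozotocin (STZ), a toxin of pancreatic beta cells, at 60 mg/kg on 5 days. Control mice of both genotypes were given chow with 10% of calories from fat and citrate buffer, so that diet and STZ cannot be told apart in any comparison. The treatment field of the labels gives induced diabetes for the 6 control mice too, and the groups follow the sample titles, which the diet and disease fields match. The mice were 8 weeks old at the start and were killed 21 weeks after STZ, and the time in their labels is 34 weeks. The model was chemically induced on an inbred strain and in male mice only, and 1 library was prepared per mouse from kidney tissue in which all segments were mixed.

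Claudins are small membrane proteins with 4 transmembrane spans that seal the gap between neighbouring epithelial cells at the tight junction, and the set of claudins in a tubule segment decides which ions and how much water pass between its cells. Cldn2 forms a channel for cations and water in the leaky proximal tubule. Cldn16 and Cldn19 work together in the thick ascending limb, where calcium and magnesium are reabsorbed between cells, and loss of either causes renal magnesium wasting in humans. Cldn10 is made from separate starts as an anion-selective form of the proximal tubule and a sodium-selective form of the thick limb. Cldn3, Cldn4, Cldn7, and Cldn8 belong to the tight distal nephron and collecting duct, Cldn1 marks the parietal epithelium of Bowman's capsule and is widespread in other epithelia, and Cldn5 seals the junctions of endothelial cells.

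The start regions of 5 claudins are shown first, because they cover both pairs of neighbouring claudin genes and both starts of Cldn10. Each window was taken from RefSeq on build GRCm38.p6, the build named in the submitters' processing notes, and ran from 250 bases before to 50 bases after a transcript start. The available table held 12 windows for 9 of the 10 claudins. Cldn3 and Cldn4 are single-exon genes on chromosome 5, at chr5:134986214-134987476 on the plus strand and chr5:134945123-134946934 on the minus strand, and 39279 bases lie between them. Their windows were chr5:134985964-134986263 and chr5:134946885-134947184, read along the strand of each gene, with capitals for CAGGTG on either strand, a core letter run of E-box elements.
Cldn3: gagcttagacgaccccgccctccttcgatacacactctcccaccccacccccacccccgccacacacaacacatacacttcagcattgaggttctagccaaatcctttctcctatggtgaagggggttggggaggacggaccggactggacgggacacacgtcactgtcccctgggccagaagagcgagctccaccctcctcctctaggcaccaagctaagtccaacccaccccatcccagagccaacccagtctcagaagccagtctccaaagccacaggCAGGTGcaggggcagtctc
Cldn4: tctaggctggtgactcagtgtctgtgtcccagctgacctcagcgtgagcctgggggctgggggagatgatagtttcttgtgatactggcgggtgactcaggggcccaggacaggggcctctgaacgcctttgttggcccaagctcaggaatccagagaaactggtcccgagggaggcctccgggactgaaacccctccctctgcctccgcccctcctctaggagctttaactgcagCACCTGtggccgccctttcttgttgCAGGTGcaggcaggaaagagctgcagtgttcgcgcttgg
CAGGTG was found 1 time in the Cldn3 window and 2 times in the Cldn4 window, and 3 of the 12 claudin windows held it, against 20.2% of the 32851 windows of all genes. The Cldn4 window also held TGANTCA, the palindromic core of AP-1 elements, which 1 of the 12 claudin windows and 7.81% of all windows held. Cldn1 and Cldn16 are neighbours on chromosome 16, at chr16:26356645-26371839 on the minus strand and chr16:26463135-26482765 on the plus strand, with 91295 bases between them. Their windows at chr16:26371790-26372089 and chr16:26462885-26463184 held no CAGGTG and are therefore in lower case throughout.
Cldn1: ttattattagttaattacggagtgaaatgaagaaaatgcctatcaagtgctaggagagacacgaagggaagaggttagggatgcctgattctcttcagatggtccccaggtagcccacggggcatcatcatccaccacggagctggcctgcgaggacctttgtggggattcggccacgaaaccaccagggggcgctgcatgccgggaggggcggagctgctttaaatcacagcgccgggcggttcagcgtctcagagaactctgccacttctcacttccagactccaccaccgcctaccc
Cldn16: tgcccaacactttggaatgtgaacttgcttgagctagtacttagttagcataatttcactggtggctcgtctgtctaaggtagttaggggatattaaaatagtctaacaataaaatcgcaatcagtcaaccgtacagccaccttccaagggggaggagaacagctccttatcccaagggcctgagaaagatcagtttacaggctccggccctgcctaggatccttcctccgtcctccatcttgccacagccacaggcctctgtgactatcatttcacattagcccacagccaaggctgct
Cldn10 spans chr14:118787871-118874525 on the plus strand, and the 2 starts in the table lie 67079 bases apart. The upstream window, chr14:118787621-118787920, had a GC content of 36.0%, and the downstream window, chr14:118854700-118854999, had a GC content of 72.0%.
Cldn10, upstream start: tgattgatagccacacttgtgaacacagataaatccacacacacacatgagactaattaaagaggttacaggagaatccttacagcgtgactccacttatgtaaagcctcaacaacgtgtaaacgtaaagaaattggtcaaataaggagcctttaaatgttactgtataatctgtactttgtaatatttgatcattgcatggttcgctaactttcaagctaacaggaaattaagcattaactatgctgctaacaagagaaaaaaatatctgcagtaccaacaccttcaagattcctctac
Cldn10, downstream start: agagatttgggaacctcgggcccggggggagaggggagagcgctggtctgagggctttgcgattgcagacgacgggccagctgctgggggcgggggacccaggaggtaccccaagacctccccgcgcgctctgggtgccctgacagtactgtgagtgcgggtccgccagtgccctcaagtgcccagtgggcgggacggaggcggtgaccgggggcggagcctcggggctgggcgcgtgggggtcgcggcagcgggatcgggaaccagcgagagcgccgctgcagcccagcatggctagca
GGGCGG, the core of GC boxes, was found 3 times in the downstream Cldn10 window and 0 times in the upstream window, and 8 of the 12 claudin windows held it, against 35.7% of all windows. The deposited values hold a single number for Cldn10 in each mouse, so the 2 starts could not be measured separately. CCAAT was held by 2 of the 12 claudin windows and 37.4% of all windows, TATAAA by the Cldn2 window alone and 13.6% of all windows, and AACNGGTT by the Cldn5 window alone and 2.09% of all windows, with both strands searched. The Cldn19 windows at chr4:119255191-119255490 and chr4:119255219-119255518 overlap, so the same GGGCGG letters are counted in both. Each motif was counted separately, overlaps between motifs were not removed, and a match is a description of letters only.

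The authors deposited FPKM, fragment counts scaled to transcript length and to mapped fragments, with sums of 330246 to 364953 in diabetic mice and 372884 to 488196 in control mice, where WT control mouse 2 had the highest sum. The number of reads was not given, and relative depth, read from the steps between low values, ranged from 0.835 to 1 of the deepest library. Correlations of log2 values within groups were 0.981 to 0.990, and no pair of mice had identical values. The deleted gene Cfb was at 56.7 to 131 FPKM in WT mice and at 1.13 to 2.22 FPKM in Cfb-/- mice, which matched the genotype labels. Proximal tubule markers, including the albumin receptor Lrp2 and the phosphate transporter Slc34a1, summed to between 1621 and 4661 FPKM, so the tissue label was borne out in each library. Markers of urothelium, the lining of the renal pelvis, summed to 0.363 to 0.867 FPKM in WT control mice against 0.818 to 51.4 in WT diabetic mice, and to 0.708 to 10.5 in Cfb-/- control mice against 1.43 to 3.68 in Cfb-/- diabetic mice.

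**Figure D1:**
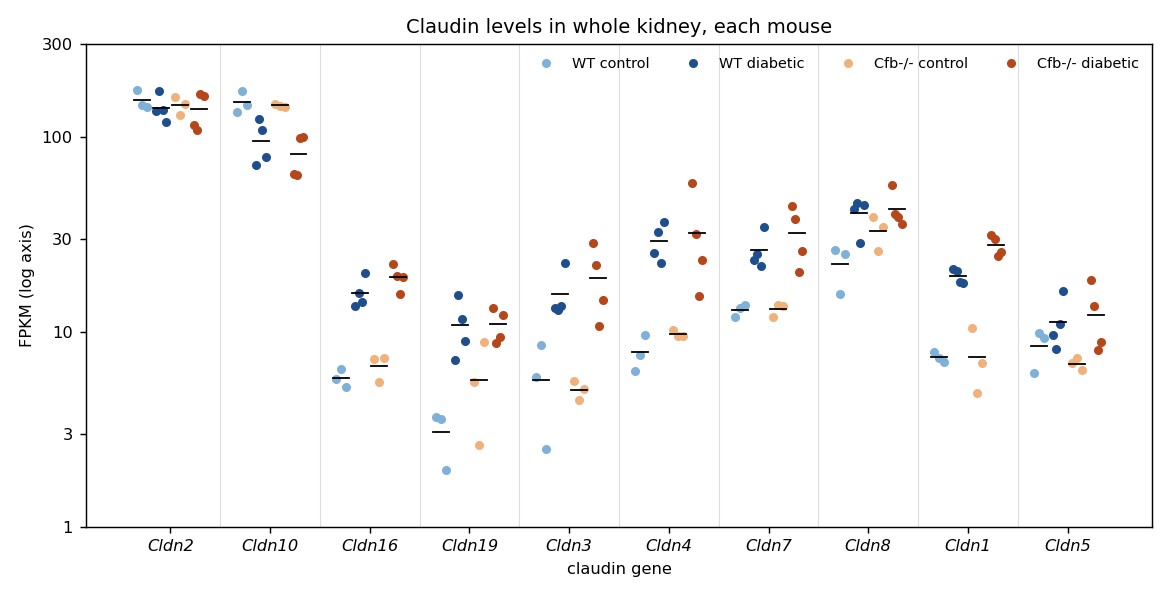
FPKM of the 10 claudins in each of the 14 mice on a log axis, by group, with a horizontal line at each group mean. Cldn2 and Cldn10 lie highest in every group, Cldn2 overlaps between control and diabetic mice, Cldn10 lies lower in diabetic mice, and Cldn1, Cldn3, Cldn4, Cldn7, and Cldn16 lie higher in every diabetic mouse than in any control mouse of the same genotype, where 45.3% of all genes in WT mice and 42.2% in Cfb-/- mice did not overlap.

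Cldn2 and Cldn10, the claudins of the leaky early nephron and the thick limb, were the most abundant of the 10 in all groups. In WT control mice Cldn2 averaged 155 ± 17.5 FPKM (SD, n = 3) and Cldn10 averaged 151 ± 19.7 FPKM (SD, n = 3), and their ranges overlapped. Cldn8, a paracellular barrier protein of the distal nephron, followed at 22.4 ± 5.83 FPKM, and its range did not reach that of Cldn10 or of the next claudin, Cldn7, at 13.01 ± 0.951 FPKM. Cldn5 at 8.44 ± 2.02 FPKM, Cldn4 at 7.87 ± 1.69 FPKM, and Cldn1 at 7.41 ± 0.412 FPKM could not be ordered because neighbours overlapped, and the same held for Cldn16 at 5.81 ± 0.616 FPKM, Cldn3 at 5.64 ± 3.02 FPKM, and Cldn19 at 3.06 ± 0.970 FPKM. Cldn19 stood last in 3 groups, and Cldn3 stood last in Cfb-/- control mice at 5.06 ± 0.561 FPKM, where it overlapped Cldn19. In Cfb-/- diabetic mice Cldn2, at 139 ± 30.8 FPKM (SD, n = 4), no longer overlapped Cldn10, at 81.7 ± 20.2 FPKM (SD, n = 4). FPKM is scaled to transcript length, so these levels can be set against each other between genes.

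The first question was which claudins differed between diabetic and control kidneys. In WT mice, 7 of the 10 claudins rose and 1 fell at an adjusted p under 0.05 in limma, against 36.2% and 9.97% of all tested genes that rose and fell. In Cfb-/- mice the counts were again 7 and 1 of 10, against 27.4% and 6.40% of all tested genes. Calls in either direction covered 46.1% of all genes in WT mice and 33.8% in Cfb-/- mice, so that a called claudin was not a rare event in itself. The median log2 fold change of the 10 claudins was 1.18 in WT mice and 1.15 in Cfb-/- mice, and the median of all tested genes was 0.29 and 0.22. Changes are therefore to be read relative to this shift, which median-ratio scaling reduced to 0.10 and 0.05 and quantile normalization to -0.05 and -0.05. Of all genes called in WT mice, 78.4% were higher with the deposited scaling, 59.0% with median-ratio scaling, and 44.2% with quantile normalization, and in Cfb-/- mice these shares were 81.0%, 64.3%, and 49.1%. Each called claudin kept its direction under the scalings and all other alternatives tried. Cldn1, Cldn3, Cldn4, Cldn7, Cldn10, Cldn16, and Cldn19 were called in both genotypes, Cldn8 in WT mice alone, and Cldn5 in Cfb-/- mice alone, and neither Cldn8 nor Cldn5 had a significant interaction of genotype and diabetes (adjusted p = 0.779 and 0.813). In this kidney tissue of mixed segments, fewer cells of a type and less RNA per cell cannot be told apart. The study's sequencing methods do not say which part of the kidney was sampled, so unequal shares of cortex, medulla, or pelvis cannot be told apart from these either. Exact permutation tests of single claudins with 4 against 3 mice cannot go below a two-sided p of 0.0286, and over the 40 exact tests in 4 comparisons the smallest adjusted p was 0.104.

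**Figure D2:**
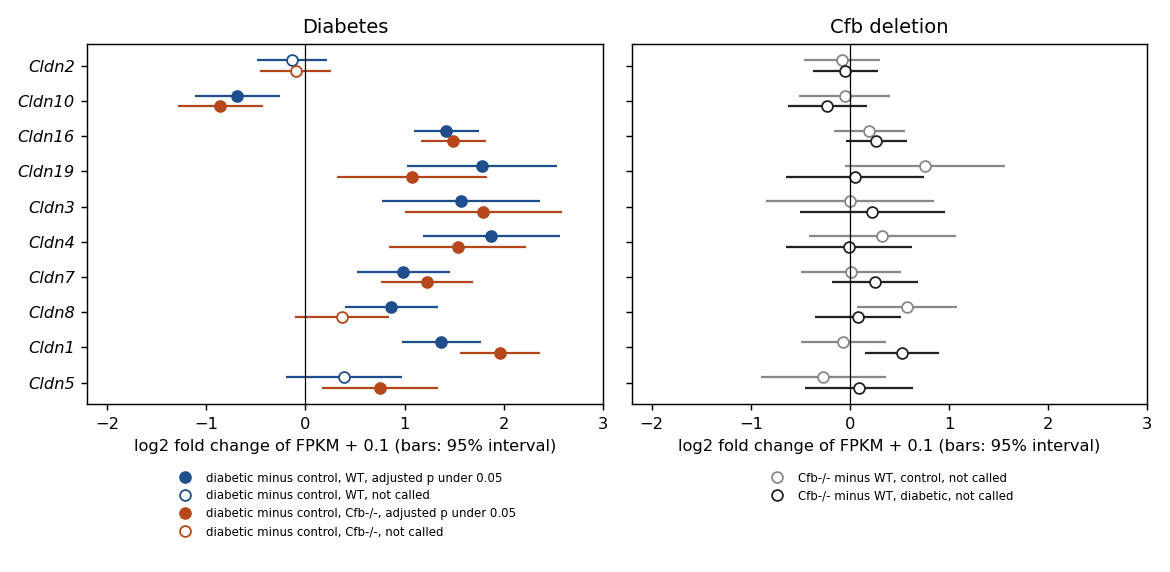
Log2 fold changes of FPKM + 0.1 for the 10 claudins with 95% intervals from limma, for diabetes within each genotype on the left and for Cfb deletion within each state on the right, with filled points for an adjusted p under 0.05. On the left Cldn10 is the only claudin filled on the lower side and Cldn2 lies near 0, and on the right no point is filled.

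Cldn2, the cation and water channel of the proximal tubule, did not pass the test in either genotype. It was at 175, 147, and 143 FPKM in WT control mice against 136, 173, 138, and 119 FPKM in WT diabetic mice. In Cfb-/- control mice it was at 160, 129, and 148 FPKM, and in Cfb-/- diabetic mice at 115, 109, 167, and 163 FPKM. The groups overlapped in both genotypes, and Cfb-/- diabetic mice 1 and 2 lay below every other mouse. The log2 fold change was -0.13 (95% interval -0.49 to 0.22, adjusted p = 0.524) in WT mice and -0.10 (95% interval -0.45 to 0.26, adjusted p = 0.685) in Cfb-/- mice, and under quantile normalization its sign turned, to 0.0759 and 0.0255.

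Most of the other proximal tubule genes listed did not stay level. Cubn, Lrp2, and Slc13a3 were not called in WT mice (log2 fold changes 0.13, -0.33, and -0.42), and Cubn was not called in Cfb-/- mice (-0.49). Of 8 proximal tubule markers, 0 rose, and 5 fell in WT mice and 7 fell in Cfb-/- mice, where 9.97% and 6.40% of all genes fell. Their summed level was 4372 to 4661 FPKM in WT control mice against 2164 to 2614 FPKM in WT diabetic mice, and 4034 to 4279 against 1621 to 2558 FPKM in Cfb-/- mice. Cldn2 was therefore also expressed relative to its segment, as its log2 value minus the mean log2 value of the 8 markers in the same mouse. This difference was -0.77 to -0.49 in WT control mice and 0.17 to 0.45 in WT diabetic mice, and -0.72 to -0.50 in Cfb-/- control mice against 0.15 to 0.89 in Cfb-/- diabetic mice. The groups did not overlap in either genotype. Relative to the proximal tubule markers, Cldn2 was thus higher in diabetic mice by 0.98 on the log2 scale as the mean over both genotypes (exact two-sided permutation p = 0.000816, the smallest of 1225 assignments, adjusted p = 0.00122 over the 9 claudins tested this way). This difference rests on the mean of all 8 markers, of which Slc5a2 and Slc5a12 fell most in WT mice (log2 fold changes -2.99 and -2.36).

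**Figure D3:**
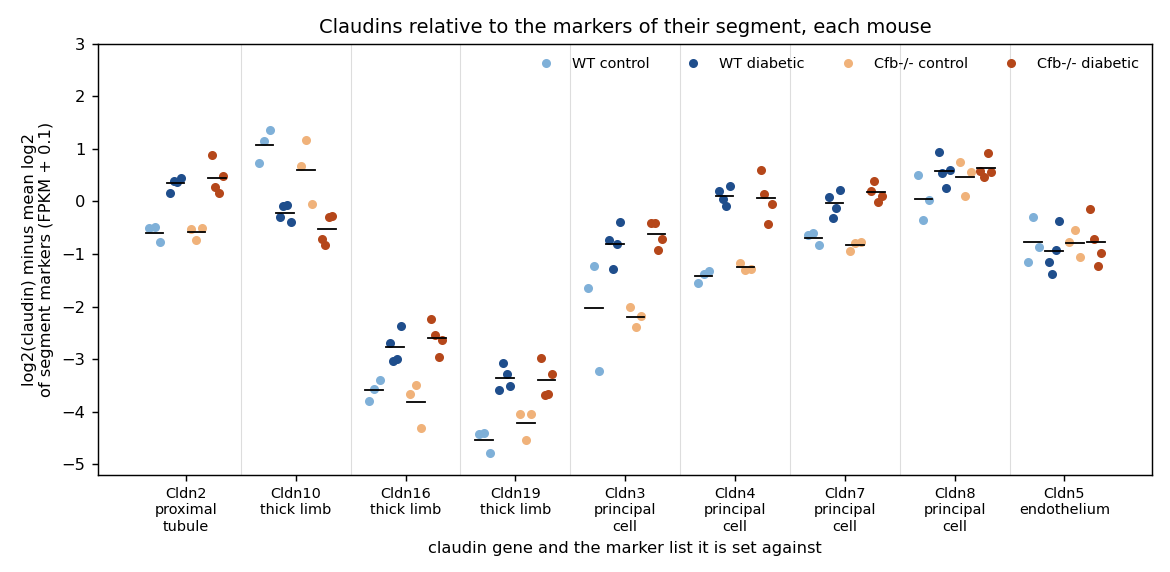
The log2 value of each claudin minus the mean log2 value of the markers of its segment, in each mouse, with lines at group means. Cldn2, Cldn4, Cldn7, Cldn16, and Cldn19 lie higher in each diabetic mouse than in each control mouse of the same genotype, Cldn10 lies lower, Cldn5 and Cldn8 overlap, and Cldn3 overlaps in WT mice only.

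Cldn10 was the only one of the 10 claudins that fell. It was at 134, 173, and 146 FPKM in WT control mice and at 71.7, 124, 109, and 79.0 FPKM in WT diabetic mice. In Cfb-/- control mice it was at 148, 144, and 143 FPKM, and in Cfb-/- diabetic mice at 64.5, 64.0, 98.3, and 99.9 FPKM. All diabetic mice lay below all control mice, and the lowest values were again those of Cfb-/- diabetic mice 1 and 2. Groups that do not overlap were seen for 45.3% of all genes in WT mice and 42.2% in Cfb-/- mice. Cldn10 fell by 0.69 on the log2 scale in WT mice (SE 0.20, adjusted p = 0.0129) and fell by 0.86 in Cfb-/- mice (SE 0.20, adjusted p = 0.00424). The call in WT mice was lost without WT control mouse 2 (log2 fold change -0.59, adjusted p = 0.0659) and after quantile normalization (-0.47, adjusted p = 0.0627). Against the 7 thick limb markers Cldn10 was lower in diabetic mice by -1.21 as a log2 difference (exact p = 0.000816, adjusted p = 0.00122), whereas against the 8 proximal tubule markers, where its other form is made, the difference was 0.32 and did not pass the test (adjusted p = 0.0682). Which form the fall came from was not tested, since the values do not separate them.

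The other claudins of the thick limb moved the opposite way. Cldn16, the claudin first linked to hereditary magnesium loss, was at 5.72, 6.47, and 5.25 FPKM in WT control mice and at 13.6, 15.8, 14.2, and 19.99 FPKM in WT diabetic mice. It was at 7.24, 5.56, and 7.31 FPKM in Cfb-/- control mice and at 22.2, 19.3, 15.6, and 19.2 FPKM in Cfb-/- diabetic mice. Each diabetic mouse was at least at 13.6 FPKM and no control mouse was above 7.31 FPKM. Cldn16 rose 2.68-fold in WT mice (log2 fold change 1.42, SE 0.15, adjusted p = 1.56e-05) and 2.82-fold in Cfb-/- mice (1.49, SE 0.15, adjusted p = 1.24e-05), and the call held in all 23 alternatives in both genotypes.

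Cldn19, the partner of Cldn16, was the least abundant thick limb claudin. It was at 3.67, 3.58, and 1.94 FPKM in WT control mice and at 7.17, 15.4, 11.6, and 8.98 FPKM in WT diabetic mice, which did not overlap. In Cfb-/- control mice it was at 5.51, 2.63, and 8.83 FPKM and in Cfb-/- diabetic mice at 13.3, 8.74, 9.44, and 12.2 FPKM, where control mouse 3 lay above diabetic mouse 2. Cldn19 rose 3.43-fold in WT mice (log2 fold change 1.78, SE 0.35, adjusted p = 0.00119) and 2.11-fold in Cfb-/- mice (1.08, SE 0.35, adjusted p = 0.0291). The latter call was lost in 7 of 23 alternatives. It was lost with median-ratio scaling (0.90, adjusted p = 0.064), quantile normalization (0.85, adjusted p = 0.078), and the replicate number as a block (1.08, adjusted p = 0.069). It was also lost without Cfb-/- control mouse 1 (1.14, adjusted p = 0.0562), Cfb-/- control mouse 2 (0.62, adjusted p = 0.177), Cfb-/- diabetic mouse 1 (0.98, adjusted p = 0.0791), or Cfb-/- diabetic mouse 4 (1.01, adjusted p = 0.0586). The WT call was lost with the urothelium score as covariate (0.87, adjusted p = 0.0906). An antisense gene, Gm12927, overlaps Cldn19 in the annotation, and the strand setting used in counting was not given in the sources used here.

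Thick limb markers other than claudins shifted less. Of 7 such markers, including the uromodulin gene Umod and the salt cotransporter gene Slc12a1, 3 rose in WT mice and 1 rose in Cfb-/- mice, where 36.2% and 27.4% of all genes rose. Their mean log2 value was higher in diabetic mice by 0.60 and 0.27 (exact p = 0.0318 over both genotypes). Relative to these markers Cldn16 was higher in diabetic mice by 1.02 and Cldn19 by 0.99 on the log2 scale (exact p = 0.000816 and adjusted p = 0.00122 for each), with no overlap between diabetic and control mice of either genotype.

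The claudins of the collecting duct and distal nephron rose in 3 of 4 cases in both genotypes. Cldn4, a chloride-selective pore and barrier protein of the collecting duct, was at 6.30, 7.64, and 9.66 FPKM in WT control mice against 25.3, 32.4, 22.5, and 36.7 FPKM in WT diabetic mice. It was at 10.2, 9.57, and 9.51 FPKM in Cfb-/- control mice and 57.8, 31.9, 15.2, and 23.5 FPKM in Cfb-/- diabetic mice. No diabetic mouse overlapped a control mouse, and Cfb-/- diabetic mouse 1 was the highest of all 14. Cldn4 rose 3.67-fold in WT mice (log2 fold change 1.87, SE 0.32, adjusted p = 4.30e-04) and 2.90-fold in Cfb-/- mice (1.54, SE 0.32, adjusted p = 0.00218).

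Cldn3, a sealing claudin and the genomic neighbour of Cldn4, was at 5.87, 8.54, and 2.51 FPKM in WT control mice against 13.2, 12.9, 13.6, and 22.6 FPKM in WT diabetic mice. It was at 5.61, 4.49, and 5.09 FPKM in Cfb-/- control mice and 28.7, 21.9, 10.7, and 14.6 FPKM in Cfb-/- diabetic mice. The groups were separate in both genotypes, and the 4 Cfb-/- diabetic mice ran from 10.7 to 28.7 FPKM. Cldn3 rose 2.97-fold in WT mice (log2 fold change 1.57, SE 0.37, adjusted p = 0.00384) and 3.46-fold in Cfb-/- mice (1.79, SE 0.37, adjusted p = 0.00193). An antisense gene, Wbscr25, overlaps Cldn3 in the annotation, so its value is uncertain in the same way as that of Cldn19.

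Cldn7, found on the lateral membrane as well as at the junction, was at 11.9, 13.3, and 13.8 FPKM in WT control mice against 23.4, 25.2, 21.9, and 34.5 FPKM in WT diabetic mice. It was at 12.0, 13.7, and 13.6 FPKM in Cfb-/- control mice and 44.1, 38.1, 20.3, and 26.1 FPKM in Cfb-/- diabetic mice. Control mice lay within a narrow range and below every diabetic mouse. Cldn7 rose 1.98-fold in WT mice (log2 fold change 0.99, SE 0.22, adjusted p = 0.00257) and 2.34-fold in Cfb-/- mice (1.23, SE 0.22, adjusted p = 6.68e-04).

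Cldn8, the partner of Cldn4 at collecting duct junctions, was at 26.4, 15.7, and 25.0 FPKM in WT control mice against 42.7, 45.8, 28.7, and 44.9 FPKM in WT diabetic mice, with no overlap. It was at 38.7, 25.9, and 34.7 FPKM in Cfb-/- control mice and 57.0, 40.1, 38.7, and 35.8 FPKM in Cfb-/- diabetic mice, which overlapped. Cldn8 rose 1.83-fold in WT mice (log2 fold change 0.87, SE 0.22, adjusted p = 0.00590), and in Cfb-/- mice its log2 fold change was 0.37 (95% interval -0.10 to 0.84, adjusted p = 0.215). The interaction was -0.50 (95% interval -1.16 to 0.17, adjusted p = 0.779), so the genotypes were not shown to differ.

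Principal cell markers were set beside these claudins. Of 7 markers, including the water channel gene Aqp2 and the sodium channel genes Scnn1b and Scnn1g, 2 rose in WT mice and 0 of 7 rose in Cfb-/- mice. Of all genes, 36.2% and 27.4% rose. Aqp2 rose most of the 7 in WT mice (log2 fold change 1.14, against 0.99 for Cldn7), and the differences below rest on the mean of all 7 markers. Their summed levels were 262 to 334 FPKM in WT control, 290 to 652 in WT diabetic, 304 to 355 in Cfb-/- control, and 279 to 526 in Cfb-/- diabetic mice. Relative to them, Cldn4 was higher in diabetic mice by 1.43, Cldn7 by 0.83, and Cldn3 by 1.40 on the log2 scale (exact p = 0.000816, 0.000816, and 0.00163, adjusted p = 0.00122, 0.00122, and 0.00210). Cldn8 was higher by 0.34, which did not pass (exact p = 0.0686, adjusted p = 0.0771), and which passed without Cfb-/- control mouse 1 (0.41, adjusted p = 0.0407) or without WT control mouse 1 (0.45, adjusted p = 0.0343). Against thick limb markers the differences of Cldn3, Cldn4, and Cldn7 also passed. Against thin limb markers they were 0.40, 0.42, and -0.17 (adjusted p = 0.672, 0.672, and 0.793). Against urothelium markers they were 0.59, 0.62, and 0.0173 (adjusted p = 0.690, 0.690, and 0.986). These are means over both genotypes, in which the markers themselves moved unequally. The mean log2 value of thin limb markers differed between diabetic and control mice by 2.22 in WT and 0.34 in Cfb-/- mice. That of urothelium markers differed by 3.12 in WT and -0.94 in Cfb-/- mice, so the mean difference describes neither genotype.

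Urothelium and thin limb markers varied strongly between mice and moved with diabetes in WT mice. All 8 urothelium markers rose in WT mice. In Cfb-/- mice 0 of 8 were called, with a median log2 fold change of -0.75. Of 5 thin limb markers, 3 rose in WT mice and 1 in Cfb-/- mice. Of all genes, 36.2% rose in WT mice and 27.4% in Cfb-/- mice. Of the 8 urothelium markers, 6 were listed at 0 in at least 1 WT control mouse, namely Upk1b, Upk2, Upk3a, Krt5, Krt14, and Krt15, and 3, Upk2, Upk3a, and Krt14, were listed at 0 in at least 1 mouse of each diabetic group. WT diabetic mouse 1 had a urothelium sum of 0.818 FPKM, within the range of WT control mice, and its Cldn3, Cldn4, and Cldn7 levels of 13.2, 25.3, and 23.4 FPKM lay above every control mouse. This is 1 library, from which no cause can be read. The part of urothelium in the rise of these claudins was not tested beyond the ratios above and the covariate below. With the urothelium score as covariate, the WT call of Cldn3 was lost (log2 fold change 1.40, adjusted p = 0.0679), and those of Cldn4, Cldn7, and Cldn8 were kept. Summed thin limb markers were at 9.32 to 22.1 FPKM in WT control, 25.8 to 106 in WT diabetic, 14.9 to 64.0 in Cfb-/- control, and 34.4 to 57.0 in Cfb-/- diabetic mice, and their part in the collecting duct claudins was not tested beyond these ratios.

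Cldn1 showed the largest rise in Cfb-/- mice among the 10 claudins. It was at 7.85, 7.34, and 7.04 FPKM in WT control mice against 21.1, 20.7, 17.9, and 17.8 FPKM in WT diabetic mice. It was at 10.4, 4.88, and 6.91 FPKM in Cfb-/- control mice and 31.5, 30.1, 24.6, and 25.8 FPKM in Cfb-/- diabetic mice. The 4 groups formed 3 separate levels, with both control groups lowest, WT diabetic mice between 17.8 and 21.1 FPKM, and Cfb-/- diabetic mice between 24.6 and 31.5 FPKM. The diabetic groups did not overlap for 2.75% of all genes either, and Cldn1 was not called between them, so a difference between genotypes was not shown. Cldn1 rose 2.59-fold in WT mice (log2 fold change 1.37, SE 0.19, adjusted p = 7.77e-05) and 3.90-fold in Cfb-/- mice (1.96, SE 0.19, adjusted p = 6.47e-06), and both calls held in all 23 alternatives. No list of parietal epithelial markers was used, so Cldn1 was not set against its own cells. Markers of podocytes, which are also glomerular cells, rose in 3 of 6 cases in WT mice and 6 of 6 in Cfb-/- mice, where 36.2% and 27.4% of all genes rose. The part of this glomerular shift in the rise of Cldn1 was not tested. Injured tubule markers such as Havcr1 and Lcn2 rose in 7 of 7 cases in both genotypes, with sums of 234 to 248 and 267 to 303 FPKM in WT and Cfb-/- control mice and 1482 to 2386 and 1184 to 2236 FPKM in the diabetic groups. Their part in the rise of Cldn1 was not tested.

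Cldn5, the endothelial claudin, was called in Cfb-/- mice only, and that call was not stable. It was at 6.14, 9.91, and 9.28 FPKM in WT control mice against 9.60, 8.16, 11, and 16.2 FPKM in WT diabetic mice, which overlapped. In Cfb-/- control mice it was at 6.90, 7.31, and 6.37 FPKM and in Cfb-/- diabetic mice at 18.4, 13.6, 8.08, and 8.91 FPKM, which were separate but unequal, with diabetic mice 1 and 2 highest. Its log2 fold change was 0.39 in WT mice (95% interval -0.20 to 0.98, adjusted p = 0.253) and 0.75 in Cfb-/- mice (SE 0.27, adjusted p = 0.0475). The latter call was lost in 15 of 23 alternatives, 8 of them with a single mouse left out (WT diabetic mouse 1 or 3, WT control mouse 3, Cfb-/- diabetic mouse 1 or 2, or Cfb-/- control mouse 1, 2, or 3), with log2 fold changes of 0.53 to 0.92 when a mouse was left out. Of 9 endothelial markers such as Pecam1 and Cdh5, 6 rose in WT mice, where Cldn5 was not called, and 7 rose in Cfb-/- mice, against 36.2% and 27.4% of all genes. These markers had sums of 167 to 213 and 133 to 165 FPKM in WT and Cfb-/- control mice and 262 to 275 and 220 to 284 FPKM in the diabetic groups. Relative to them Cldn5 differed by -0.0796 on the log2 scale (exact p = 0.718), and by 0.0391 without WT control mouse 2.

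The make-up of the claudin total differed although the total itself was similar. The summed FPKM of the 10 claudins was 380 ± 14.6 in WT control mice (SD, n = 3), 406 ± 46.9 in WT diabetic mice (SD, n = 4), 379 ± 29.3 in Cfb-/- control mice (SD, n = 3), and 417 ± 32.1 in Cfb-/- diabetic mice (SD, n = 4), and these ranges overlapped. Cldn2 and Cldn10 together made up 79.5% to 81.5% of it in WT control mice and 49.6% to 63.6% in WT diabetic mice. Their share was 75.9% to 78.7% in Cfb-/- control mice against 39.7% to 65.0% in Cfb-/- diabetic mice. Shares within a total are bound to each other, so these are given as a description, and the lowest share belonged to Cfb-/- diabetic mouse 1, which had the highest Cldn3, Cldn4, Cldn5, Cldn7, and Cldn8 levels of all mice.

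**Figure D4:**
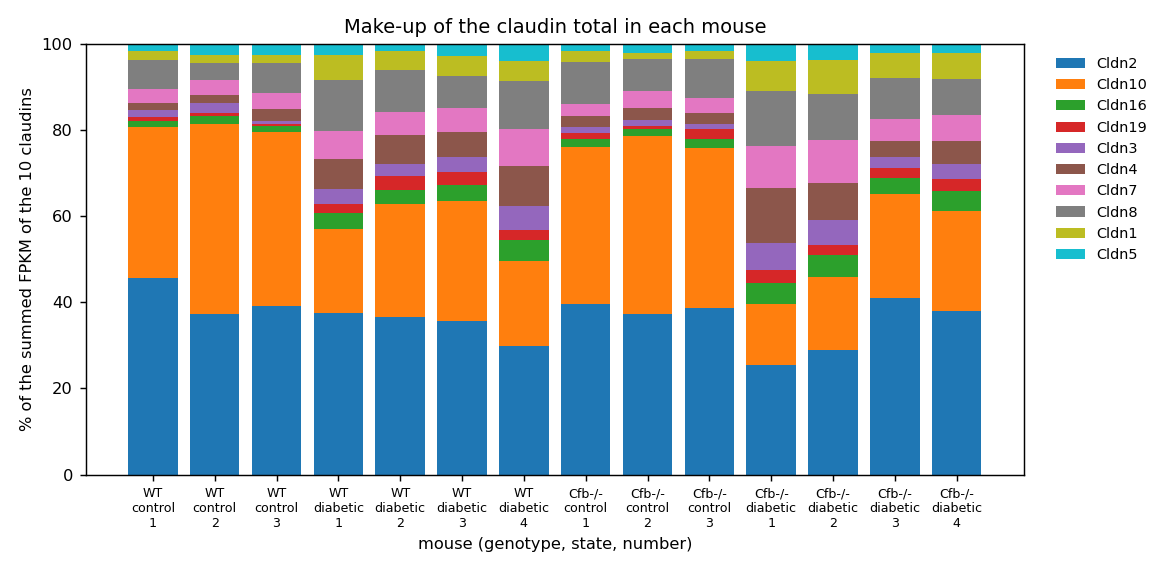
Share of each claudin in the summed FPKM of the 10 claudins, in percent, with 1 stacked bar per mouse. The share of Cldn2 and Cldn10 at the base of the bars is 75.9% to 81.5% in control mice and 39.7% to 65.0% in diabetic mice.

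The next question was whether Cfb deletion altered claudin levels. In diabetic mice 0 of 10 claudins were called between Cfb-/- and WT mice, where 0.00671% of all genes, Cfb alone, were called, and at an unadjusted p under 0.05 there was 1 claudin, and 448 of the 14912 genes. This claudin was Cldn1, which was 1.44-fold higher in Cfb-/- diabetic mice (log2 fold change 0.53, SE 0.17, unadjusted p = 0.00867, adjusted p = 1). The 4 Cfb-/- values all lay above the 4 WT values, as given above, and such a separation was seen for 2.75% of all genes (exact permutation p = 0.0286, the smallest that 4 against 4 mice allow, adjusted p = 0.104 over the 40 exact tests). The other 9 claudins overlapped between genotypes, with log2 fold changes from -0.23 for Cldn10 (95% interval -0.62 to 0.17) to 0.27 for Cldn16 (95% interval -0.04 to 0.57). For Cldn3, Cldn4, and Cldn19 the intervals reached 0.96, 0.63, and 0.75, so differences of this size could not be told from none with 4 mice a group.

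In control mice 0 of 10 claudins were called, and again Cfb was the only gene called, 0.00671% of all genes. The count over all genes hung on WT control mouse 1, since 1724 of 14892 genes were called without it, with 0 claudins among them, and 10 and 11 genes were called without Cfb-/- control mouse 1 and mouse 2. At an unadjusted p under 0.05 there was 1 claudin, Cldn8, and 2614 of the 14912 genes. Cldn8 had a log2 fold change of 0.58 (SE 0.24, unadjusted p = 0.0269, adjusted p = 0.254), and Cfb-/- control mouse 2 at 25.9 FPKM lay below WT control mouse 1 at 26.4 FPKM. Cldn19 had a log2 fold change of 0.76 (95% interval -0.05 to 1.56, adjusted p = 0.305), and the remaining claudins lay between -0.27 for Cldn5 and 0.33 for Cldn4. With 3 against 3 mice an exact test cannot go below p = 0.1, and no claudin reached it.

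The difference between genotypes in the response to diabetes was tested as an interaction. It gave 0 of 10 claudins and 0 of 14912 genes, 0.00%, at an adjusted p under 0.05 in limma, with 1 claudin and 861 genes at an unadjusted p under 0.05. The claudin was Cldn1, with an interaction of 0.59 (SE 0.26, unadjusted p = 0.0413, adjusted p = 0.779). For Cldn19 the interaction was -0.70 (95% interval -1.77 to 0.36), the largest in size among the 10 and the least precise but for Cldn3.

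Of 24 other claudin rows, 10 passed the filter, Cldn14 only through diabetic mice and Cldn18 only through control mice. In WT mice 4 of them rose and 1 fell, near the 36.2% and 9.97% of all genes, with a median log2 fold change of 0.37 against 0.29 over all genes. In Cfb-/- mice 1 rose and 1 fell, against 27.4% and 6.40% of all genes, with a median of 0.31 against 0.22. Cldn15, a cation-selective pore of the intestine, rose from 4.36 ± 0.348 to 10.2 ± 1.85 FPKM in WT mice (log2 fold change 1.198, adjusted p = 4.72e-05) and from 4.51 ± 0.811 to 7.19 ± 0.506 FPKM in Cfb-/- mice (0.67, adjusted p = 0.00361). Cldn18, a claudin of stomach and lung, was at 0.234 ± 0.114 and 0.296 ± 0.0670 FPKM in WT and Cfb-/- control mice and was at 0 in 2 of 4 mice of each diabetic group, with log2 fold changes of -1.33 and -1.75 (adjusted p = 0.00259 and 4.35e-04). No diabetic mouse was above 0.0790 FPKM, so Cldn18 passed the filter only through control mice, and its fall is given as a description. Cldn14, which lowers the cation permeability of the Cldn16 and Cldn19 pore, was at most at 0.188 FPKM in any mouse and rose in WT mice by 0.99 on the log2 scale of FPKM + 0.1 (adjusted p = 0.0173). No control mouse was above 0.0808 FPKM, so Cldn14 passed the filter only through diabetic mice, and its rise is given as a description. Cldn11 at a log2 fold change of 2.15 (adjusted p = 0.00627) and Cldn23 at 1.498 (adjusted p = 0.0366) also rose in WT mice, from means of 0.0422 and 0.0365 FPKM. Cldn12, at 22.2 ± 3.63 FPKM in WT control mice the most abundant of these other claudins, had a log2 fold change of -0.06 (adjusted p = 0.804) and is named here after its values were seen.

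The mRNA levels of tight junction partners, whose proteins anchor claudins to the cell or regulate the junction, came from the same tables. Of 22 tight junction partners found and tested of 24 symbols listed, 12 rose and 2 fell in WT mice, where 36.2% and 9.97% of all genes did. In Cfb-/- mice 6 rose and 0 fell, and for the rises this was a share near the 27.4% of all genes. The median log2 fold changes of 0.35 and 0.30 were also near those of all genes, 0.29 and 0.22. The largest rises in WT mice were those of Tjp1, the scaffold ZO-1 (1.10, adjusted p = 8.15e-04), Cgn, the cytoplasmic plaque protein cingulin (1.07, adjusted p = 6.87e-05), the scaffold Magi3 (1.06, adjusted p = 0.00372), and the adhesion molecule Jam2 (0.98, adjusted p = 0.00730). Tjp1 and Cgn also rose in Cfb-/- mice, by 0.79 and 0.66 (adjusted p = 0.00838 and 0.00267). Prkcz, an atypical protein kinase C of the polarity complex, fell by 0.47 and Jam3 fell by 0.45 in WT mice (adjusted p = 0.00736 and 0.0121). In the list of magnesium handling genes, which Cldn16 and Cldn19 serve, 3 of 11 tested genes rose and 1 fell in WT mice and 1 rose in Cfb-/- mice, which was no more than the shares of all genes, 36.2% and 9.97% in WT mice and 27.4% for rises in Cfb-/- mice. These were Slc41a1, a magnesium carrier (0.69 in WT mice, adjusted p = 0.00513, and 0.56 in Cfb-/- mice, adjusted p = 0.0219), Cnnm4 (0.46, adjusted p = 0.0487), Cldn14, and Fxyd2, a regulatory subunit of the sodium pump, which fell by 0.79 (adjusted p = 0.00309) in WT mice. Cldn14 was tested only because of its level in diabetic mice. No gene of either list was called for Cfb deletion or for the interaction.

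Finally, the genes that varied most like each claudin within groups were listed, by Pearson's r of deviations from the group means over the 14 mice and 11381 genes. Cldn2 varied most like F13b (r = 0.98), Lrrc19, and Degs1 (r = 0.97 each), and Cldn10 most like Skp1a (r = 0.94), Mocs2 (r = 0.93), and Pmpcb (r = 0.92). For Cldn16 these were Fopnl (r = 0.95), Nkiras2, and Fbxo2, and for Cldn19 Ccdc64 (r = 0.98), Wnt7b, and Tspan6. For the collecting duct claudins the nearest gene was Casp4 for Cldn3 (r = 0.94), Itgb4 for Cldn4 (r = 0.95), Ddah2 for Cldn7 (r = 0.96), and Acvr1 for Cldn8 (r = 0.95). Cldn1 had the lowest nearest value, with Tnks1bp1 and Thra (r = 0.90 each), and Cldn5 was nearest to Rabep2 (r = 0.96). The points share libraries and tissue composition, the best of 11381 genes is high by selection, and these values are descriptions.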

How the data were processed

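Kidney RNA of 14 mice was sequenced as stranded mRNA libraries read from both ends, from samples with an RNA integrity number of at least 7. The authors deposited 1 expression value per gene and mouse, and the values were read as FPKM, because they were not whole numbers, summed to different totals, and stepped in units that shrank with transcript length. The submitters' processing notes name Trimmomatic, HISAT2, Cufflinks, HTSeq, DESeq, and build GRCm38.p6, whose versions and roles are not given in the sources used here. The study's methods name a count test, which FPKM do not allow. Depth in reads is unknown, so no counting intervals are given.

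Groups were taken from the sample titles. The members and lists were chosen with earlier results of these data known. The limma package (version 3.58.1, R 4.3.3) was fitted with a variance trend to log2(FPKM + 0.1) of all 14 mice with 1 mean per group, for the 14912 genes at or above 0.1 FPKM in 3 mice or more, and p-values were adjusted by Benjamini-Hochberg over all of them. Fold changes are on the log2(FPKM + 0.1) scale, which understates changes of low genes. Claudins relative to segment markers were compared with exact two-sided permutation tests within genotypes, in Python 3.11.15 with numpy 2.4.6, pandas 2.3.3, and matplotlib 3.10.9. Named genes were all 10 members, other claudins called in any comparison, up to 4 called tight junction and magnesium genes per direction in WT mice, and the 3 genes most like each member. The fit was tested on simulated data. Alternatives were pseudocounts of 0.01 and 1, no filter or an FPKM filter of 1, median-ratio scaling, quantile normalization, the groups compared alone, the replicate number as a block, the urothelium score as covariate, other marker lists, and leaving out each mouse. Patient tissue, lipids, and cell lines were not analysed here.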

Additional observations from a re-analysis of the deposited data

Results flagged for a closer look

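In WT diabetic mice the highest Cldn3 level, 22.6 FPKM in mouse 4, stood apart from the other 3 mice at 12.9 to 13.6 FPKM, as its gap to the nearest mouse made up more of the group's range than the critical value of Dixon's test allows. It was 1 of 20 groups of 4 mice tested for the 10 claudins, and chance alone is expected to flag about 1 in 20.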

How the results depend on the processing

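Of the claudins called for diabetes, Cldn1, Cldn4, Cldn7, and Cldn16 in both genotypes, Cldn8 in WT mice, and Cldn3 and Cldn10 in Cfb-/- mice kept their calls in all 23 alternatives. The count of called claudins was 6 to 8 in each genotype, 6 in WT mice with the urothelium score as covariate, and 0 throughout for Cfb deletion and for the interaction. With that covariate 3671 of all genes were called in WT mice, against 6879 without it. No pairing of mice by replicate number was seen. Deviations of same-numbered mice of different groups correlated at -0.388 to 0.243 (median 0.022, 19 pairs), and those of differently numbered mice at -0.321 to 0.392. With the replicate block 8 claudins were called in WT mice and 6 in Cfb-/- mice, where Cldn5 (adjusted p = 0.108) and Cldn19 (adjusted p = 0.0685) were lost, and 0 in the 3 other comparisons.

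Under quantile normalization the log2 fold change of Cldn2 was 0.0759 and 0.0255 for diabetes in WT and Cfb-/- mice, 0.0469 and 0.0973 for Cfb deletion in diabetic and control mice, and -0.0504 for the interaction, that of Cldn4 was 0.0123 for deletion in diabetic mice, and those of Cldn3, Cldn7, and Cldn10 were -0.0628, -0.0074, and 0.109 for deletion in control mice. Median-ratio scaling gave -0.0625 for Cldn3 and -0.0564 for Cldn7, and a pseudocount of 1 gave -0.0200 for Cldn3, in the same comparison. With the urothelium covariate, deletion in diabetic mice gave 0.0779 for Cldn2, 0.0136 for Cldn4, and 0.0531 for Cldn10, deletion in control mice -0.0977 for Cldn3, and the interaction 0.33 for Cldn10 and 0.48 for Cldn19. Relative to markers, Cldn10 against proximal tubule was 0.32 and Cldn7 against thin limb was -0.17. The cause was not tested.

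When 1 mouse was left out, Cldn2 ranged from -0.20 to 0.0093 for diabetes in Cfb-/- mice. For deletion in diabetic mice the ranges were -0.14 to 0.0613 for Cldn2, -0.0038 to 0.47 for Cldn3, -0.35 to 0.29 for Cldn4, -0.13 to 0.28 for Cldn5, -0.0755 to 0.16 for Cldn8, and -0.12 to 0.24 for Cldn19. For deletion in control mice they were -0.35 to 0.20 for Cldn1, -0.15 to 0.0083 for Cldn2, -0.48 to 0.38 for Cldn3, -0.0495 to 0.0743 for Cldn7, and -0.13 to 0.0482 for Cldn10. For the interaction they were -0.0612 to 0.14 for Cldn2, -0.15 to 0.71 for Cldn3, and -0.0562 to 0.19 for Cldn16. Relative to endothelial markers Cldn5 ranged from -0.18 to 0.0391.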
